A study of Mus musculus with 2 samples.

Results

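The genes described here encode the transcriptional end of the Hippo pathway, namely the coactivators Yap (Yap1) and Taz (Wwtr1), the DNA-binding factors Tead1, Tead2, Tead3 and Tead4, the Tead cofactor Vgll4, and the angiomotins Amot, Amotl1 and Amotl2. They were taken by gene symbol from the expression tables of the series, and all 10 are listed among 22072 gene symbols, in 17 RefSeq transcript entries. RNA-seq was performed on 2 libraries of sorted lung cells from adult mice fed doxycycline at 625 mg/kg for 16 days. The library labelled Mst1/2 CKO came from mice with the transactivator transgene Scgb1a1-rtTA, the Cre transgene tetOCre and the floxed alleles Mst1-flx/flx and Mst2-flx/flx. The Control library came from mice with tetOCre and the same floxed alleles, without Scgb1a1-rtTA. Each library was made from RNA pooled from 4 mice. Every mouse thus carried Cre and floxed alleles of the Hippo kinases Mst1 and Mst2, and the groups differ in the transactivator, which the Scgb1a1 promoter of club cells drives; its own effects and those of active Cre cannot be told apart from those of the deletion. The sort took cells without lineage markers, with CD326 and with intermediate CD24, and was meant to enrich secretory airway cells without cilia. Listed transcripts held about 8340000 reads in the library labelled CKO and about 8770000 in Control. With 1 library per genotype there is no spread between replicates and no p-value, and no difference below has a replicate check. Fewer cells of a type and less RNA per cell cannot be told apart in such pools.

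In the Hippo pathway, Mst1 and Mst2 activate the Lats kinases, which phosphorylate Yap and Taz and so keep them out of the nucleus or mark them for degradation. Yap and Taz cannot bind DNA themselves; in the nucleus they join Tead factors, which bring them to target genes. Vgll4 competes with Yap for Tead, and angiomotins bind Yap and Taz at cell junctions and in the cytoplasm. In lung, Yap is known for its part in basal cell maintenance, airway differentiation and alveolar repair. Much of this control acts on the proteins, which were not measured, and the values here are RNA levels.

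Several of these genes are listed with more than 1 transcript, and the tables assigned their reads differently between the libraries. Whole inner coding exons that only some entries hold are therefore shown, for Yap1, Tead1 and Tead4. Other differences between entries are not shown. Among these are the coding lengths of Wwtr1 (1356 and 1185 bases) and Tead3 (1395 and 1317 bases), for which no such exon was found. The letters are from GENCODE M21 (GRCm38), which matched all 17 entries by RefSeq identifier. Capitals mark the exon that only some entries hold, and the 15 lower-case letters on each side belong to the neighbouring coding exons. All 4 exons have lengths that keep the reading frame.
Yap1, coding exon 6 of 9, chr9:7950492-7950539, minus strand: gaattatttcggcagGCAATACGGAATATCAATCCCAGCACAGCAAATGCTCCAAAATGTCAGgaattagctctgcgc
Tead1, coding exon 3 of 13, chr7:112841888-112841950, plus strand: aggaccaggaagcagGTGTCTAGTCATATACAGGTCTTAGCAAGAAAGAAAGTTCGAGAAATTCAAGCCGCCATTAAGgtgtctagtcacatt
Tead1, coding exon 5 of 13, chr7:112856053-112856064, plus strand: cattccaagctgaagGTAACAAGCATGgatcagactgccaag
Tead4, coding exon 4 of 11, chr6:128247960-128248088, minus strand: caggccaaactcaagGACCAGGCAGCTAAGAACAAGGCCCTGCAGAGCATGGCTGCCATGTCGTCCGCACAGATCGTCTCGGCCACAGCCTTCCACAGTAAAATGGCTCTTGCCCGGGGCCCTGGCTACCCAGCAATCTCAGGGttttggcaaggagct
The 63-base Tead1 exon is followed by another coding exon of 63 bases, and the pair is identical at 44 of 63 positions (69.8%). In human YAP1 the matching exon lies in the stretch that encodes the activation domain.

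All 8 genes of the group with FPKM (mapped fragments per transcript length and library size) of at least 1 had higher values in the library labelled Mst1/2 CKO, by modest amounts, as did 63.2% of all 9945 measured genes. The differences were largest for the factors Tead4 and Tead1, for Amotl1 and for Vgll4, and smallest for Wwtr1 and Tead3. Each of the 8 was at FPKM of at least 1 in both libraries, whereas Tead2 and Amot were below 1 in both. On the log2(FPKM + 1) scale, which understates the differences of low genes, the median difference of the 8 was 0.34 (range 0.07 to 0.52), against 0.07 over all 9945 measured genes. None of the 8 was 1.5-fold higher on this scale, a size that 3.02% of measured genes reached, and none was 1.5-fold lower, which 2.59% were. Tead1, Tead4, Vgll4 and Amotl1 were at least 25% higher in FPKM + 1, 4 of 8 against 12.8% of measured genes. None of the 8 was at least 20% lower, the same fold in the other direction, against 7.36%. Over all genes the 1.5-fold calls split into 300 higher and 258 lower, and into 208 higher and 325 lower after centring on the median gene, when Tead1, Tead4 and Vgll4 still passed 25%, against 8.2% of measured genes. In the intervals that follow, 95% counting error is given on approximate reads; differences between mice, sorts or library preparations are not covered.

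**Figure D1:**
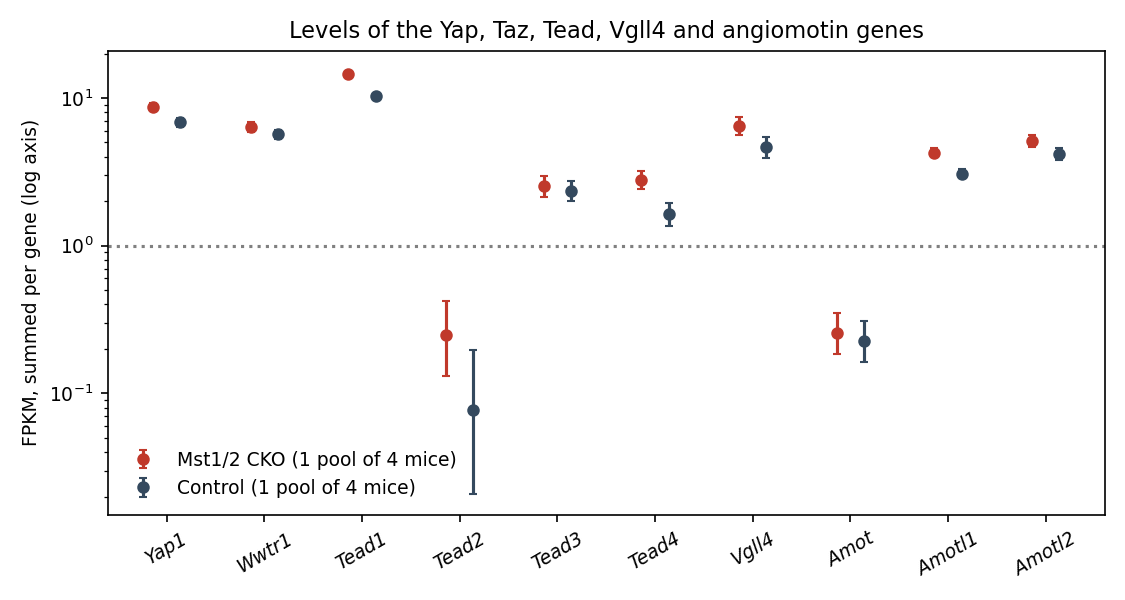
FPKM summed per gene (vertical log axis) of the 10 genes, with the library labelled Mst1/2 CKO in red left of Control in dark blue; points are 1 pool of 4 mice each, bars are exact 95% Poisson intervals of approximate reads, and the dotted line is FPKM of 1. Tead1 is the highest in both libraries, at 14.5 and 10.3, and Tead2 and Amot lie below 1.

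Of the coactivators, Yap1 was 1.26-fold and Wwtr1 1.12-fold higher in the library labelled CKO, with counting intervals that overlap. Yap1 (chr9:7932001-8004596, mm9) had an FPKM of 8.69 in the library labelled CKO and 6.88 in the Control library. The counting interval of its ratio was 1.15 to 1.39, on about 874 reads in the library labelled CKO and 776 in Control. Wwtr1 (chr3:57259566-57379832), the Taz gene, had FPKM of 6.39 in the library labelled CKO and 5.68 in Control, with an interval of 1.01 to 1.248. The Wwtr1 interval holds the median FPKM ratio of all measured genes, 1.06, and the Yap1 interval lies above it. Yap1 was above Wwtr1 within each library, at 1.36 times its FPKM in the library labelled CKO and 1.21 times in Control. Together they summed to FPKM of 15.1 in the library labelled CKO and 12.6 in Control, a ratio of 1.20 (1.12 to 1.29). Among measured genes the Yap1 difference stood at percentile 85.2 and the Wwtr1 difference at 64.7, by rank of the log2(FPKM + 1) difference. The 3 genes nearest to Yap1 in both log2(FPKM + 1) values over these 2 libraries were Bnip3, at FPKM of 8.74 in the library labelled CKO and 6.90 in Control, Cdc42ep4 (8.68 and 6.93) and Hnrnpr (8.87 and 6.81), with Euclidean distances of 0.0080, 0.0097 and 0.029.

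The Yap1 level was split differently between its transcripts. NM_001171147, which holds the 48-base exon shown above (coding length 1464 bases), had FPKM of 5.61 in the library labelled CKO and 6.88 in Control. NM_009534, which lacks it (1416 bases), had 3.09 in the library labelled CKO and 0.00037 in Control. The entry with the exon thus took 64.5% of Yap1 FPKM in the library labelled CKO and 99.99% in Control. Taking the highest entry alone as the Yap1 level turned its direction round, to a log2 difference of -0.25. At these coverages, about 12.8 reads in the library labelled CKO and 17.5 in Control would touch the exon. About 3.4 reads in the library labelled CKO and none in Control would span the junction that skips it. The split therefore rests on few reads, and the tables used here give no interval for it.

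**Figure D2:**
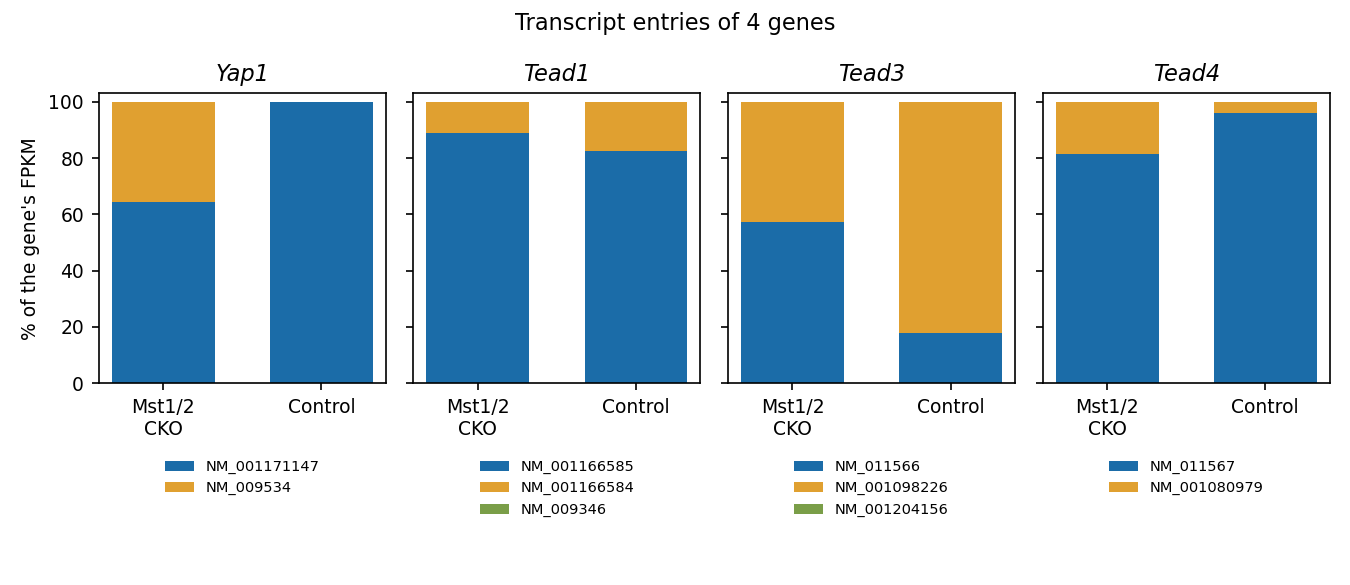
Share of a gene's FPKM (vertical axis, percent) assigned to each RefSeq transcript entry of Yap1, Tead1, Tead3 and Tead4, with the library labelled Mst1/2 CKO left of Control; stacked colours are entries, and entries near 0 are not visible. NM_001171147 holds 64.5% of Yap1 in the library labelled CKO and 99.99% in Control, and NM_011566 holds 57.3% of Tead3 in the library labelled CKO and 17.9% in Control.

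Tead1 was the most abundant of the DNA-binding partners and of all 10 genes. Tead1 (chr7:119822834-120050319) had an FPKM of 14.5 in the library labelled CKO and 10.3 in Control. The ratio was 1.42 (1.35 to 1.49), the narrowest interval of the group, on about 3360 reads in the library labelled CKO and 2658 in Control. Tead4 (chr6:128177161-128250831) had the largest ratio among the 8 measured genes, 1.70 (1.37 to 2.13), at FPKM of 2.78 in the library labelled CKO and 1.63 in Control. Tead3 (chr17:28468618-28487750) had 2.53 in the library labelled CKO and 2.35 in Control, a ratio of 1.07 (0.856 to 1.35), so that a difference was not detectable at its depth of 156 and 158 reads. The Tead1 and Tead4 intervals lie above the median ratio of all genes, and Tead1 and Tead4 stood at percentiles 94.5 and 95.98 of the differences of measured genes. Tead2 (chr7:52471123-52488989), a factor best known from early embryos, had FPKM of 0.248 in the library labelled CKO and 0.077 in Control. That ratio of 3.23 (0.998 to 13.6) rests on about 13 reads in the library labelled CKO and 4 in Control.

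Summed over the 4 Tead genes, FPKM was 20.1 in the library labelled CKO and 14.3 in Control, a ratio of 1.40 (1.34 to 1.47). This interval lies above that of the Yap1 and Wwtr1 sum. Both intervals treat the reads of the summed genes as 1 count, and Tead1, with the longest transcripts, gave most of the Tead reads. Transcript length is taken up below. With its trend removed, the log2 difference was 0.33 for Tead1, 0.20 for Yap1 and 0.046 for Wwtr1. Tead FPKM was 1.33 times the Yap1 and Wwtr1 FPKM in the library labelled CKO and 1.14 times in Control. Tead1 supplied 72.4% of it in the library labelled CKO and 71.7% in Control, Tead3 12.6% and 16.4%, Tead4 13.8% and 11.4%, and Tead2 1.23% and 0.536%. Tead4 was above Tead3 in the library labelled CKO and below it in Control, although in the library labelled CKO the counting intervals of the pair overlap.

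**Figure D3:**
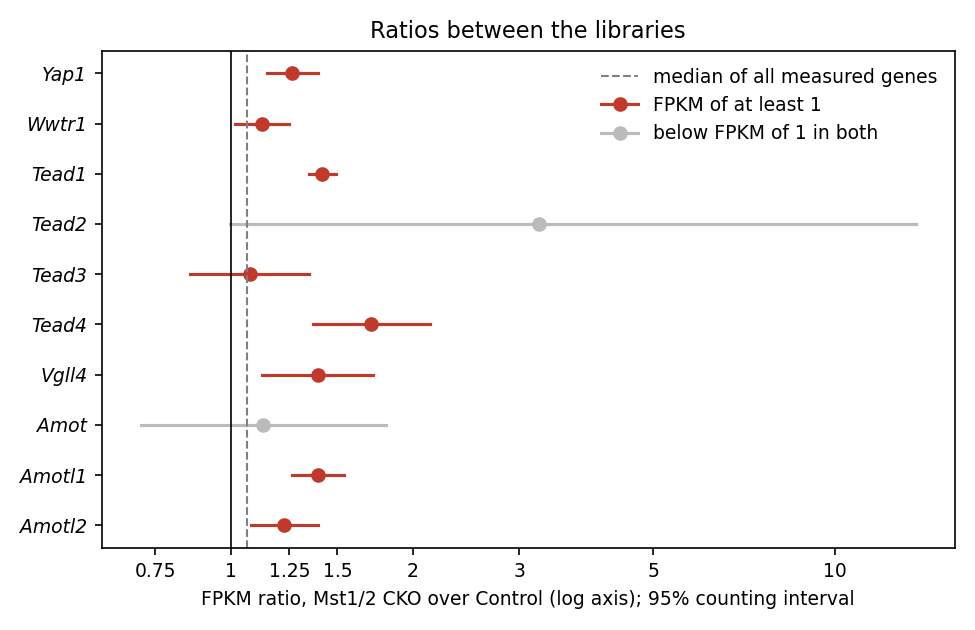
FPKM ratio of the library labelled Mst1/2 CKO over Control (horizontal log axis) for each gene, with the exact 95% counting interval; the solid line is equality, the dashed line the median of all measured genes at 1.06, and grey marks the genes below FPKM of 1 in both libraries. Tead1, Tead4, Amotl1, Vgll4, Yap1 and Amotl2 have intervals above the dashed line.

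Within the Tead genes the transcripts also shared the reads unevenly. Tead1 was carried mainly by NM_001166585, which starts inside the gene and lacks the 63-base and 12-base exons, with 88.8% of Tead1 FPKM in the library labelled CKO and 82.5% in Control. NM_001166584, which holds both exons, had FPKM of 1.63 in the library labelled CKO and 1.79 in Control. The higher Tead1 sum was thus assigned to the shorter entry, at 12.9 in the library labelled CKO and 8.47 in Control. At these coverages, about 4.3 reads in the library labelled CKO and 5.3 in Control would touch the 63-base exon. About 14.4 and 10.6 would span the junction that skips it, so at this exon the split rests on few reads. For Tead3 the leading entry differed between the libraries. NM_011566 had FPKM of 1.45 in the library labelled CKO and 0.422 in Control, while NM_001098226, whose coding sequence is longer (1395 against 1317 bases), had 1.08 in the library labelled CKO and 1.93 in Control. Taking the highest entry of each library alone gave Tead3 a log2 difference of -0.26. That value sets NM_011566 in the library labelled CKO against NM_001098226 in Control, so it is not the difference of a single entry. The reads that could tell the Tead3 entries apart were not counted. Tead4 NM_011567, with the 129-base exon, had 2.27 in the library labelled CKO and 1.57 in Control. NM_001080979, without it, had 0.512 in the library labelled CKO and 0.067 in Control, but under 1 read would span its skipping junction in either library, so this split cannot be read.

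Vgll4 (chr6:114812108-114871770), whose protein competes with Yap for Tead, was higher, as were Tead1 and Tead4. Its FPKM was 6.46 in the library labelled CKO and 4.64 in Control, a ratio of 1.39 (1.13 to 1.72), on about 202 and 162 reads. It stood at percentile 92.2 of all differences. Vgll4 FPKM was 0.321 times the Tead sum in the library labelled CKO and 0.324 times in Control, and 0.428 times the Yap1 and Wwtr1 sum in the library labelled CKO and 0.370 times in Control. The Vgll4 entry in the tables is 1293 bases long, against 2028 bases for the matching GENCODE M21 transcript, so its level relative to other genes depends on the annotation used. The other Vgll genes were not measurable, with Vgll1 and Vgll2 listed at 0 in both libraries and Vgll3 at FPKM of 0.177 in the library labelled CKO and 0.094 in Control.

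Amotl1 and Amotl2, scaffold proteins of cell junctions, made up nearly all angiomotin RNA. Amotl1 (chr9:14346411-14419444) had FPKM of 4.28 in the library labelled CKO and 3.07 in Control, a ratio of 1.39 (1.26 to 1.54). Amotl2 (chr9:102620134-102635747), which is also a known Yap target gene, had 5.12 in the library labelled CKO and 4.17 in Control, a ratio of 1.23 (1.08 to 1.39). Both intervals lie above the median ratio of all genes, and they overlap each other. Amot (chrX:141880967-141921589) had 0.257 in the library labelled CKO and 0.228 in Control, a ratio of 1.13 (0.709 to 1.80) on about 40 and 39 reads. The angiomotin sum was 9.65 in the library labelled CKO and 7.47 in Control, with Amotl2 at 53.0% of it in the library labelled CKO and 55.9% in Control.

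By level, the order in the library labelled CKO was Tead1, Yap1, Vgll4, Wwtr1, Amotl2, Amotl1, Tead4, Tead3, Amot and Tead2. In Control it was Tead1, Yap1, Wwtr1, Vgll4, Amotl2, Amotl1, Tead3, Tead4, Amot and Tead2. Neighbours whose counting intervals overlap were Vgll4 with Wwtr1, Tead4 with Tead3 and Amot with Tead2 in the library labelled CKO, and Wwtr1 with Vgll4, Vgll4 with Amotl2, and Amot with Tead2 in Control. The changes of place in the order thus fell among neighbours whose intervals overlap in at least 1 library. Among measured genes Tead1 stood at level percentile 86.98 in the library labelled CKO and 81.9 in Control, and Tead4 at 36.7 and 19.5.

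**Figure D4:**
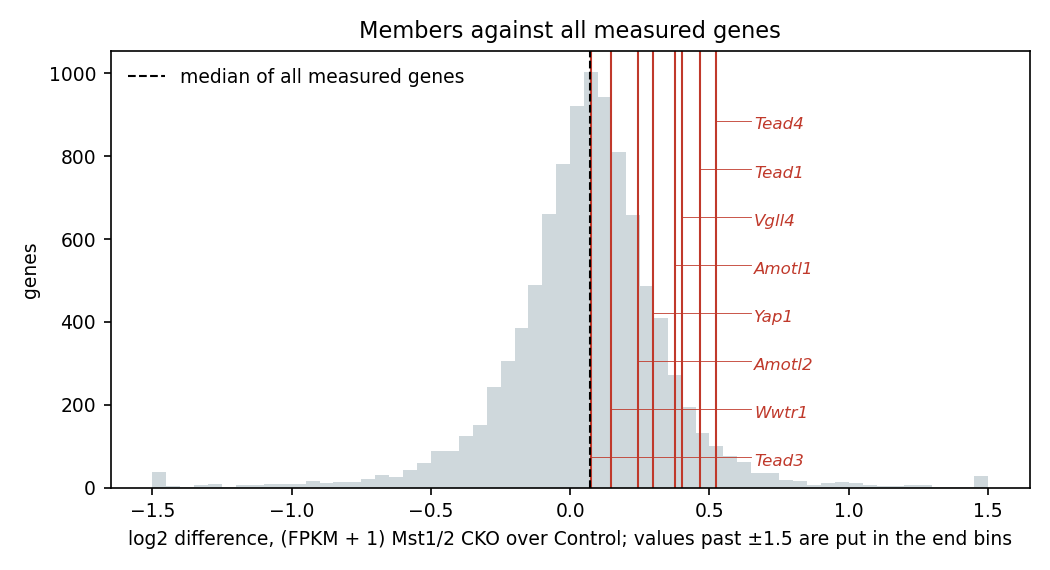
Histogram of the log2(FPKM + 1) difference (horizontal axis) between the library labelled Mst1/2 CKO and Control over 9945 measured genes (vertical axis, number of genes), with red lines at the 8 measured genes of the group and a dashed line at the median of all genes, 0.07. The 8 lie from 0.07 for Tead3 to 0.52 for Tead4.

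Longer transcripts tended to have higher differences (Spearman rho 0.170 across measured genes, which are not independent replicates), and Tead1 and Amotl1 have long transcripts, at 9547 bases weighted by FPKM and 8950 bases. With that length trend removed, Tead1 had a log2 difference of 0.33 and Amotl1 of 0.24, the median of the 8 was 0.22, and 3 of 8 remained at least 25% higher, against 8.51% of measured genes.

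The letters GGAATG, the core that Tead factors bind, or CATTCC on the other strand, were searched in RefSeq promoter windows (GRCm38.p6; 250 bases before to 50 bases after a start). They are shown because target genes of the pathway include some of its own members, and capitals mark the match. Of the 8 members with an entry, 5 held a match in at least 1 window, namely Yap1, Wwtr1, Vgll4, Amotl2 and Tead3, against 16.6% of all 27025 genes with an entry. A gene with more windows has more chances of a match, and the comparison does not adjust for this. Tead3 has 3 windows and Wwtr1 has 2, and 32851 windows were searched in all.
Yap1, chr9:8004712-8004757, minus strand: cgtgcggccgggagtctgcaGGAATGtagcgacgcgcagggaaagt
Wwtr1, chr3:57576021-57576066, minus strand: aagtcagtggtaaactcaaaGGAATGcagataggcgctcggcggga
Vgll4, chr6:114969260-114969305, minus strand: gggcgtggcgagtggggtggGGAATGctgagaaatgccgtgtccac
Amotl2, chr9:102717719-102717764, plus strand: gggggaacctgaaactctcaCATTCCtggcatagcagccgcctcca
Tead3, chr17:28350698-28350743, minus strand: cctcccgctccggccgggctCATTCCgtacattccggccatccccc
Tead3 holds 4 distinct matches over its 3 windows, of which 1 is in capitals here, and the other members with a match hold 1 distinct match each, which for Wwtr1 lies in both of its windows. The windows of Tead2, Amot and Amotl1 hold no match, and Tead1 and Tead4 have no entry. Members with a match had FPKM ratios from 1.07 (Tead3) to 1.39 (Vgll4), and Amotl1, without one, had 1.39. A match describes the letters of a window and is not a binding measurement. Windows were taken by gene symbol in GRCm38.p6, and the measured entries are placed in mm9. Whether each window, that of Vgll4 included, lies at the start of a measured entry was not tested.

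The genes around this group differed unevenly. Of 11 Hippo kinases and adaptors, all measured, 1 was at least 25% higher and 0 lower, with a median log2 difference of 0.14. That gene was Lats2, a kinase that phosphorylates Yap, at FPKM of 6.28 in the library labelled CKO and 4.27 in Control. The deleted genes Stk4 (Mst1) and Stk3 (Mst2) had 4.71 and 7.09 in the library labelled CKO and 5.38 and 7.28 in Control. These ratios of 0.874 (0.784 to 0.975) and 0.975 (0.863 to 1.10) cover whole transcripts, which can include exons that Cre leaves in place, so they do not check the label. Of 9 measured upstream scaffolds, out of 11 listed, 6 were at least 25% higher and 0 lower (median 0.49). Among them were the junction and membrane proteins Wwc2, at 6.62 in the library labelled CKO and 3.70 in Control, Frmd6, at 3.97 and 2.54, and the LIM protein gene Wtip, at 2.11 and 1.07.

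Genes that hold Yap and Taz in the cytoplasm or turn them over had a median of 0.16 over 16 measured. Of these, 5 were at least 25% higher and 0 lower, against 12.8% and 7.36% of all measured genes. Ptpn14, a phosphatase that binds Yap, had FPKM of 4.17 in the library labelled CKO and 2.50 in Control. The 14-3-3 gene Ywhah, whose protein family binds phosphorylated Yap, had 22.1 in the library labelled CKO and 17.002 in Control. Among 9 measured partners and ubiquitin ligases of angiomotins, 1 was higher, near the share of all measured genes. It was the polarity gene Mpp5, at 8.34 in the library labelled CKO and 5.13 in Control. The ligase gene Nedd4 had 63.2 in the library labelled CKO and 64.5 in Control, and Tnks2, a tankyrase that marks angiomotins for degradation, 10.2 and 9.38. None of 9 measured other transcription partners of Yap and Taz passed either limit, with Smad3 at 6.67 in the library labelled CKO and 5.35 in Control and Runx1 at 18.6 and 19.6. Of 4 measured targets, out of 6 listed, 2 were at least 25% higher and 1 lower. Ctgf had 17.2 in the library labelled CKO and 4.30 in Control, Cyr61 85.7 and 61.4, and Axl, a receptor kinase gene, 0.388 and 1.245.

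**Figure D5:**
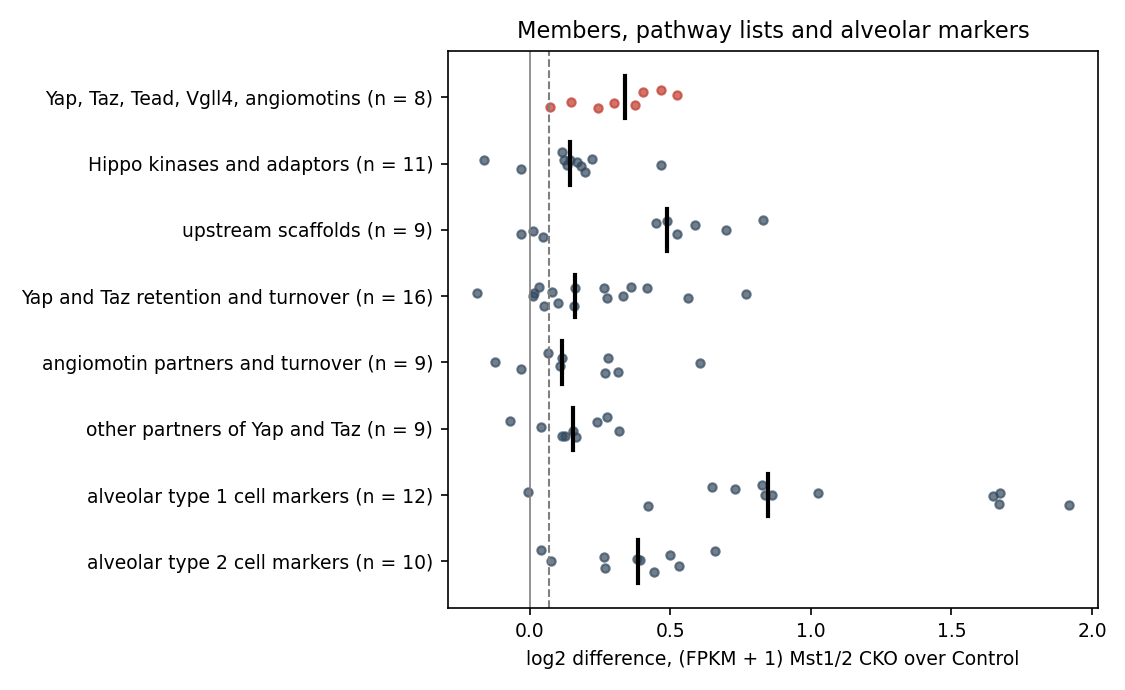
Log2(FPKM + 1) difference between the library labelled Mst1/2 CKO and Control (horizontal axis) of each measured gene of the group (red) and of pathway and alveolar marker lists (dark blue); black bars are medians, the solid line is 0 and the dashed line the median of all measured genes. The group has a median of 0.34, the upstream scaffolds 0.49 and the alveolar type 1 cell markers 0.85.

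Markers of several cell types also differed between the libraries, some higher and some lower in the library labelled CKO. The counts below stand against 12.8% of all measured genes at least 25% higher and 7.36% at least 20% lower. Alveolar type 1 cell markers summed to FPKM of 656 in the library labelled CKO and 302 in Control over 13 genes, with 11 of 12 measured at least 25% higher and none listed at 0. Alveolar type 2 cell markers summed to 14320 in the library labelled CKO and 11451 in Control, with 6 of 10 at least 25% higher, and 5 of 8 ciliated cell markers were higher. Of the club cell markers, 5 of 9 measured were at least 20% lower and 1 higher. Scgb1a1, the defining one, is listed at 0 in both and has no usable estimate. Without Scgb1a1 the club cell markers summed to 6432 in the library labelled CKO and 6801 in Control. Most of this was Cyp2f2, at 5305 in the library labelled CKO and 4694 in Control. Basal cell markers, of which 5 of 5 measured were lower, summed to 9.26 in the library labelled CKO and 24.9 in Control. Mucous cell markers, of which 4 of 4 measured were lower, summed to 10.1 in the library labelled CKO and 31.4 in Control. Mesenchymal markers, of which 3 of 4 measured were lower, summed to 8.41 in the library labelled CKO and 19.4 in Control. Their members differed unevenly. Dcn had 3.79 in the library labelled CKO and 11.9 in Control, Col1a2 1.20 and 1.32, and Acta2, below the filter, 0.604 and 0.291. Of the leukocyte markers, 4 of 7 measured were lower and 2 higher, and the only measured endothelial marker, Kdr, had 5.11 in the library labelled CKO and 9.05 in Control. Among neuroendocrine markers 1 of 5 was higher and 1 lower, counts too small to set apart from the shares of all measured genes. The part of these cell types in the values of the Yap, Taz, Tead and angiomotin genes was not tested.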

How the data were processed

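TopHat, Cufflinks and the mm9 build are named in the submitters' processing notes; versions, settings and strand handling: not given in the sources used here. The authors deposited 1 table per library which, per the file headers, holds an FPKM value, a transcript length and a coverage signal (mean read depth) for each of 28107 RefSeq transcript entries. FPKM was summed per gene symbol, and log2((FPKM + 1) in Mst1/2 CKO over (FPKM + 1) in Control) was taken over genes with FPKM of at least 1 in a library. Start positions were raised by 1 so as to count from 1. Reads were approximated as coverage times length over 47.1 bases, the median of single-transcript rows between 25 and 75 bases; this read size is an assumption. Clopper-Pearson intervals (95%) of ratios and Poisson intervals of levels use these rounded reads and cover counting error only. All members have status OK, and no other listed gene overlaps them. Older symbols were matched by a table of aliases. Genes named are all members, listed pathway genes past 25% higher or 20% lower in FPKM + 1, other listed genes as examples chosen after their values were seen, Stk3 and Stk4, and the 3 genes nearest to Yap1. Members, lists and folds were chosen with earlier results of these data known. Python 3.11.15, pandas, scipy and statsmodels were used. Alternatives changed the pseudocount, filter, scaling, row choice, status and length trend. The values of 1 listed gene are not reported here.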

Additional observations from a re-analysis of the deposited data

How the results depend on the processing

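The median log2 difference of the measured genes of the group stayed between 0.22 and 0.40 under the 9 alternatives, and none of them made a measured gene at least 20% lower. With a pseudocount of 0.1, 1 of 8 genes (Tead4) was at least 1.5-fold higher, as were 614 of 9945 measured genes. As reported, these counts were 0 of 8 and 300 of 9945. In both directions together, 1090 measured genes were 1.5-fold apart, against 558 as reported. After conversion to TPM, 1 of 8 (Tead4) and 483 of 9945 measured genes were at least 1.5-fold higher, and 1001 were apart in both directions together. With a filter at FPKM of 5, 265 genes were 1.5-fold apart and 2 of the 5 genes of the group left (Tead1 and Vgll4) were at least 25% higher, against 14.8% of all genes left. With the libraries set to the same upper quartile, 2 of 8 (Tead1 and Tead4) were, against 7.84%. The filter leaves fewer genes to count, a smaller pseudocount enlarges differences of low genes, and the causes of the others were not tested. Under the 6 alternatives of scale or row choice, most log2 differences of the 10 genes, Tead2 and Amot included, were above 0. The exceptions were Yap1 and Tead3 by the highest entry in each library, given above, and Amot after centring (-0.035) and with the length trend removed (-0.081). These are the same 2 libraries recomputed, not further observations. The median of all measured genes was 0 after centring, -0.0098 with the same upper quartile and -0.0015 with the length trend removed. No paired analysis was possible because each genotype has 1 library, and no replicate could be left out. Depth limits Tead2, Amot, Tead3 and every split between transcripts.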
